A study of Mus musculus with 10 samples.

Results

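Serum tells resting fibroblasts that tissue has been wounded, and among the early genes it switches on are genes for secreted signals that act on neighbouring cells. A set of 7 such genes was examined, listed by symbol: Hbegf, Inhba, Vegfa, Il11, Lif, Il6 and Tgfb1. A member is every probe set whose platform annotation gives exactly 1 symbol, equal to a listed one. Of the 7 listed genes, 6 have 1 probe set each, out of 8251 genes with such a probe set, and Lif is not analysed here. After a filter on dim probe sets, 5 of the 6 were tested (Hbegf, Inhba, Vegfa, Il11 and Il6), among 9316 of 12422 probe sets. Tgfb1 was too dim to be tested, with a mean level of 2.37 on the log2 scale over 10 arrays, under the limit of 2.92, while Vegfa (3.10) and Il11 (3.37) lay just inside it. Both passed only through the serum-treated arrays: over the 5 starved arrays Vegfa averaged 2.46 and Il11 2.75, under the limit.

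The cells were primary mouse embryonic fibroblasts (MEFs), taken from C57/BLACK6, ATF1 +/- embryos of the age e14.5. Every group carried that heterozygous genotype, so these data hold no wild-type comparison. Cells were kept for 48 h in 1% dialyzed serum and then for 2 h in 10% serum (serum-treated) or again in 1% serum (starved). Each state was measured in cytoplasmic RNA (1 array), in polyribosome RNA, meaning mRNA that carried 2 or more ribosomes in a sucrose gradient (2 arrays), and in undertranslated RNA from the gradient fractions with at most a single ribosome (2 arrays). The 6 groups were thus serum-treated and starved cytoplasmic, serum-treated and starved polyribosome, and serum-treated and starved undertranslated RNA. Only gradient cultures were given cycloheximide, which freezes ribosomes on mRNA, over the last 30 min. In every gradient group replicate 2 had also received 200 µM 4-thiouridine and tritiated cytidine, which label new RNA. Gradient fractions of several biological and technical replicates were combined into each pool, so a p-value here reflects differences between such pools, which may be partly technical. In bulk RNA of this kind, fewer cells of a type and less RNA per cell cannot be told apart.

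The genes fall into families by how their proteins signal. Hbegf encodes a membrane-anchored ligand of the EGF receptor, which metalloproteases of the ADAM family cut loose. Inhba encodes the subunit that pairs with itself to form activin A, and Tgfb1 encodes the latent cytokine TGF-beta 1: both signal through receptor kinases and Smad proteins. Vegfa encodes the main growth factor of blood vessel endothelium. Il11, Il6 and Lif encode cytokines that share the receptor chain gp130, the product of Il6st, and signal through STAT3. Many mRNAs of such signals are made within an hour or so of a stimulus and decay fast.

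Array medians of the deposited intensities were 19.1 and 19.2 for cytoplasmic RNA, 45.3 to 54.2 for polyribosome RNA and 5.7 to 8.8 for undertranslated RNA. The share of probe sets above background, the highest of 19 control probe sets that match no mouse RNA, was 56.3 to 64.7%, 68.0 to 73.5% and 43.4 to 53.5% in these pools. The undertranslated arrays were therefore the dimmest, and they also spread most: replicate arrays had a median SD of 0.20 log2 units in both polyribosome groups, against 0.56 in serum-treated and 0.34 in starved undertranslated RNA. The ratio of 3′ to 5′ signal of the Actb control probe sets was 23.6 and 33.9 on serum-treated undertranslated arrays, against 137 and 61.4 on starved ones. On the other 6 arrays it was between 11.5 and 21.1. The Gapdh control probe sets ran the other way across pools, at 6.11 to 47.0 on the other 6 arrays and 3.70 to 6.81 on undertranslated ones. All 12 fibroblast markers (such as Col1a1, Pdgfra and Dcn) were above background on every cytoplasmic and polyribosome array. Levels below are quantile-normalized log2 values, and a level between pools is relative to each pool's own distribution.

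Promoter windows are shown for 4 genes whose mRNAs were higher on every serum-treated than on every starved array of cytoplasmic and polyribosome RNA. The windows let the letters before their transcript starts be compared. Hbegf met the same rule, but its window is not reported here. Each window runs from 250 bases before to 50 bases after a RefSeq transcript start (GRCm38.p6), read 5′ to 3′ on the gene's strand, with matches to the motifs named below in capitals. They lie at chr17:46032328-46032627 (minus strand) for Vegfa, chr13:16011601-16011900 (plus) for Inhba, chr7:4778092-4778391 (minus) for Il11 and chr5:30012864-30013163 (plus) for Il6. Vegfa and Il11 each have 1 further window, which is not printed. The printed windows of Il11 and Inhba lie inside the gene spans, chr7:4772373-4782907 and chr13:16004256-16031609, not at their 5′ ends.
Vegfa: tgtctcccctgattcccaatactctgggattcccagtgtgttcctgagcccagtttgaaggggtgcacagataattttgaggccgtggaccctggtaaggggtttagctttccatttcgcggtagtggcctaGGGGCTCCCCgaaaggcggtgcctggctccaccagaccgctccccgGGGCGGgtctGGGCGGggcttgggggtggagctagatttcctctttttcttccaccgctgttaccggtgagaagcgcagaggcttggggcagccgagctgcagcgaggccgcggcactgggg
Inhba: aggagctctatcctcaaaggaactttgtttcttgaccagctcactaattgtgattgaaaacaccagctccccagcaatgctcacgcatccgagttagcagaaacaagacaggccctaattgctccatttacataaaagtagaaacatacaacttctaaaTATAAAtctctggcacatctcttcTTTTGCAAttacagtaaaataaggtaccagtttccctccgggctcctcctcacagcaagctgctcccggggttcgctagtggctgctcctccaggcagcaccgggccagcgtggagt
Il11: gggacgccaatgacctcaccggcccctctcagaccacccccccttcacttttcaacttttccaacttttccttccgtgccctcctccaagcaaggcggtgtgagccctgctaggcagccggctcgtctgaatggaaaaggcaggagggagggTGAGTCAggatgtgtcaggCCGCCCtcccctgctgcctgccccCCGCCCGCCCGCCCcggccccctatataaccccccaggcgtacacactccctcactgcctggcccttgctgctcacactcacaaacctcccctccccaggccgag
Il6: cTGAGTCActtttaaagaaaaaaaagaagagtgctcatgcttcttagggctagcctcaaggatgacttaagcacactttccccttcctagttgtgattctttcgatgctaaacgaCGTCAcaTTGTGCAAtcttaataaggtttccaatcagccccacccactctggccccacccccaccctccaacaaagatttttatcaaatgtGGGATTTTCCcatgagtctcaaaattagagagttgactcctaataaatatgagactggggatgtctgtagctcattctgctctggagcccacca

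The windows do not share a single motif. An AP-1 site (TGANTCA, which Fos and Jun proteins bind) stands at -98 to -92 in Il11 and at -249 to -243 in Il6, counted from the transcript start. Of the 8 windows of 6 listed genes it was found in 3 (Il11, Lif and Il6), and it was found in 7.81% of 32851 windows of all genes. The further window of Il11, which is not printed, has no AP-1 site. The NF-kappaB consensus matched in 4 of the 8 (Vegfa, Lif, Il6 and Tgfb1; 8.46% of all windows) and the GC box GGGCGG in 5 (of Vegfa, Il11 and Tgfb1; 35.7%). The Il6 window also holds the cAMP response element core TGACG on the minus strand at -135 to -131 (in 20.8% of all windows), a C/EBP site (TTGCNNAA, 10.8%) at -128 to -121 and the NF-kappaB consensus at -44 to -35. The Inhba window holds a TATA box (TATAAA, 13.6%) at -91 to -86 and a C/EBP site at -67 to -60. Vegfa has 2 GC boxes and an NF-kappaB consensus at -118 to -109, and Il11 has 4 GC boxes, some overlapping. The full cAMP response element TGACGTCA (1.79%), the STAT site TTCNNNGAA (8.3%) and the CArG box bound by serum response factor (1.63%) matched in none of the 8 windows of these 6 genes, and the hypoxia response core ACGTG (19.6%) matched in 1, the second window of Vegfa. All 10 motifs were searched on both strands. A match is a run of letters, not a site shown to be bound.

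**Figure D1:**
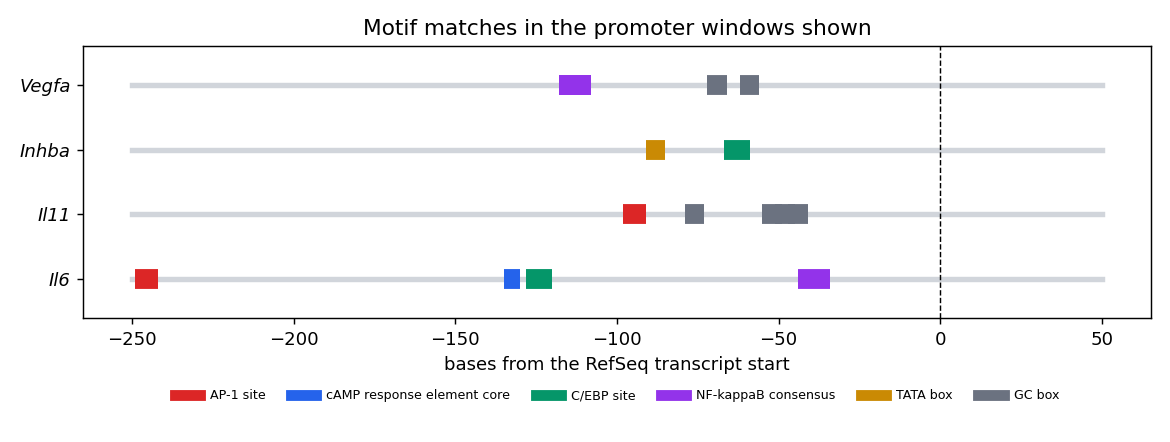
Matches of the motifs named in the text, in the 4 promoter windows shown, by distance in bases from the RefSeq transcript start (dashed line). Each grey bar is 1 window of 300 bases, and coloured blocks mark matches on either strand. In the windows drawn, the AP-1 match of Il11 lies nearer the start than that of Il6, and Vegfa and Inhba have none. The further window of Il11, not drawn, has none either.

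The first comparison asks how these mRNAs responded to 2 h of serum in polyribosome and cytoplasmic RNA. Il11, Inhba, Vegfa and Hbegf rose, with log2 differences of 2.70, 1.90, 1.90 and 1.62, and Il6 was higher on every array without passing the test. Across all 9316 probe sets, 62 rose (0.666%) and 21 fell (0.225%), with a median difference of -0.01, and 4 of the 5 tested genes were among those 62. Vegfa and Il11 entered the test through the arrays on which they were high, so this count is a description and supports nothing. With no filter Il11 kept its call and Vegfa did not (adjusted p 0.0751). All 3 serum-treated arrays lay above all 3 starved arrays for 5 of the 6 genes (all but Tgfb1), as they did for 458 of the 9316 probe sets (4.92%). The fit was limma's, with RNA pool as a covariate and p-values adjusted over all 9316 probe sets. The genes were listed with earlier results of these data known, so the count says nothing of how often such genes respond.

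Hbegf, the EGF receptor ligand, had a deposited intensity of 417 in serum-treated cytoplasmic RNA, against 104 in starved cytoplasmic RNA. In polyribosome RNA it had 999.7 and 951 after serum, against 391 and 324 in starved cells. On the log2 scale the 3 serum-treated arrays stood at 8.41, 8.01 and 8.01, against 6.36, 6.57 and 6.65 for the 3 starved ones. The groups did not overlap, and the array pairs of the same number differed by 2.05 (cytoplasmic), 1.45 and 1.35 (polyribosome). limma gave a log2 difference of 1.62 ± 0.19 (SE), a 3.07-fold higher level, with an adjusted p of 0.00937.

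Inhba, the activin A subunit, was far above background on all 10 arrays. Its intensity was 2095 in serum-treated cytoplasmic RNA, against 538 in starved cytoplasmic RNA. In polyribosome RNA it was 2638 and 3011 after serum, against 1344 and 674 in starved cells. Every serum-treated array exceeded every starved array of these pools. The 3 serum-treated arrays stood at 10.91, 9.38 and 9.75 log2 units, against 8.64, 8.13 and 7.57 for the starved ones. The pairs differed by 2.27, 1.25 and 2.18, and the fitted difference was 1.90 ± 0.22 (SE), 3.73-fold, with limma's adjusted p at 0.00885.

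Il11, a gp130 cytokine known for actions on fibroblasts, megakaryocytes and epithelium, had the largest fitted difference of the 5. Its order against Vegfa is not settled, because the starved polyribosome arrays were below background for both genes. After serum its intensity was 54.5 in cytoplasmic RNA and 79.4 and 150 in polyribosome RNA, against 4.4 in cytoplasmic RNA and 8.7 and 13.5 in polyribosome RNA of starved cells. It was above background on all 3 serum-treated arrays and on none of the 3 starved ones, so the starved level is only an upper limit. Against that limit the serum-treated level was at least 4.67-fold higher. Such a bound sets the mean of the brighter arrays against, for each dimmer array, the higher of its own value and the lowest level above background. The fitted log2 difference was 2.70 ± 0.27 (SE) with limma's adjusted p at 0.0063.

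Vegfa, the endothelial growth factor, was dimmer. Its intensity was 48.5 in cytoplasmic RNA and 33.4 and 67.0 in polyribosome RNA after serum, against 8.8 in cytoplasmic RNA and 6.6 and 11.2 in polyribosome RNA of starved cells. Of the starved arrays only the cytoplasmic one was above its background (8.2), so the starved polyribosome level is again an upper limit, and serum-treated polyribosome RNA held at least 2.40-fold more. The pairs differed by 2.03, 1.71 and 1.97, and the fitted difference was 1.90 ± 0.29 (SE) with limma's adjusted p at 0.0228.

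Il6, the gp130 cytokine of acute inflammation, moved least. It stood at 4.59 log2 units in cytoplasmic RNA and at 5.03 and 5.38 in polyribosome RNA after serum, against 4.06 in cytoplasmic RNA and 4.47 and 4.55 in polyribosome RNA of starved cells. The groups only just failed to overlap. The pairs differed by 0.53, 0.56 and 0.83, all upward. The fitted difference of 0.64 ± 0.19 (SE) did not pass after adjustment, with limma's adjusted p at 0.222.

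Tgfb1 behaved differently in the 2 pools. In the cytoplasmic pair its intensity was 54.3 after serum, against 7.6 in starved cells, where it was not above background, which makes it at least 4.71-fold higher. In polyribosome RNA it read 3.7 and 6.1 after serum, against 5.2 and 3.0 in starved cells, all below background. The cytoplasmic value rests on 1 array per state, with no replicate check, and no test was made. In that pair 5 of the 6 genes were at least 1 log2 unit higher after serum (all but Il6), as were 380 of the 8232 probe sets above background on either array (4.62%).

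**Figure D2:**
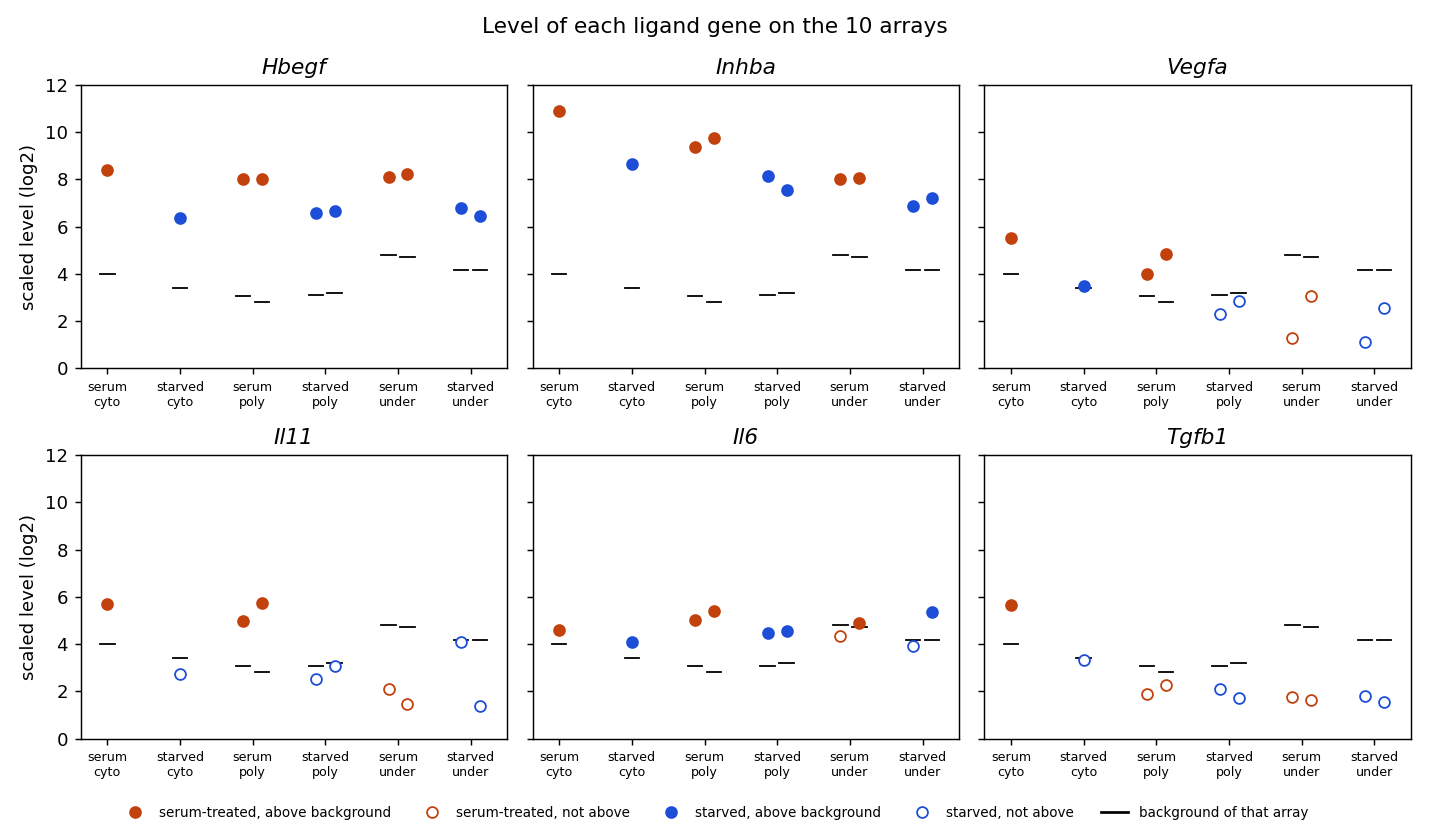
Quantile-normalized log2 level of the 6 measured genes on the 10 arrays. Orange points are serum-treated and blue points starved arrays, by RNA pool (cyto, cytoplasmic; poly, polyribosome; under, undertranslated), open points were not above background, and black dashes give each array's background. Hbegf and Inhba are above background everywhere, and Il11 on the 3 serum-treated cytoplasmic and polyribosome arrays alone.

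With the replicate number, which pairs arrays by 4-thiouridine labelling, as a block, 152 probe sets passed, these 4 genes among them. The calls depended on having both pools. Without either cytoplasmic array, which leaves the polyribosome arrays to decide, none of the 4 passed, with limma's adjusted p between 0.0909 and 0.221, while the differences stayed between 1.40 and 2.59. Without serum-treated polyribosome replicate 2, Vegfa (0.118), Inhba (0.0725) and Hbegf (0.0537) lost their calls, and without starved polyribosome replicate 1 so did Vegfa (0.0914).

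Markers of macrophages also rose with serum. Of all tested probe sets 0.666% rose and 0.225% fell, so a marker list in which none passed shows nothing particular to it. Of 17 macrophage markers on the array 14 were tested, and 7 rose (Clec4d, Ctss, Lyz2, Tyrobp, Laptm5, Cd14 and C1qc, by 1.77 to 1.09 log2 units), none fell, and the median over the 14 was 1.10. Their summed level on the linear scale was 902 to 1674 on the 3 serum-treated cytoplasmic and polyribosome arrays, against 417 to 539 on the 3 starved ones. Among the defining markers, Itgam was above background on none of the 10 arrays. Cd68 differed by 0.88 (adjusted p 0.0927), Adgre1 by 0.99 (0.312) and Csf1r by 0.08 (0.930), and Ptprc was above background on the 2 serum-treated polyribosome arrays alone. The 12 fibroblast markers had a median of 0.24 and none passed. Of 5 endothelial markers tested 1 rose, Flt1, and none of 5 epithelial or of 2 lymphocyte markers passed. Epithelial sums were also higher after serum: 120, against 68.0, in cytoplasmic RNA, and 83.1 to 90.8, against 60.4 to 62.7, in polyribosome RNA. Endothelial sums were 91.8, against 46.0, and 92.5 to 99.1, against 58.7 to 85.9. Lymphocyte sums (47.1, against 53.9) and fibroblast sums (13599, against 15635) were lower after serum in the cytoplasmic pair. In polyribosome RNA fibroblast sums were higher after serum (13926 to 15122, against 10153 to 13248). Lymphocyte sums overlapped there (37.7 to 39.4, against 37.1 to 39.0). Macrophages can make several of these cytokines, and the part of macrophage markers in the results above was not tested.

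Most genes of the same signalling systems did not pass the test of the serum response, and neither did most of all probe sets. Over all 9316 probe sets 0.666% rose and 0.225% fell, the shares to set beside the counts of each list. List counts near these shares, here and in the next paragraphs, show nothing particular to a list. Of 12 close relatives of the ligands that were tested (such as Vegfb, Vegfc, Pgf, Tgfb2, Tgfb3 and Ereg), none passed, and their median difference was 0.02 log2 units. Vegfc differed by 0.05 ± 0.19, Tgfb2 by 0.25 ± 0.20 and Ereg, another EGF receptor ligand, by 0.82 ± 0.37 (SE). Of 15 other growth factors and cytokines 2 rose and 1 fell. Il1b, an inflammatory cytokine, was at least 2.11-fold higher after serum (adjusted p 0.0172, limma), and Csf1, the macrophage growth factor, differed by 1.37 ± 0.25 (0.0428). Bmp4, a bone morphogenetic protein, fell by 1.57 log2 units (SE 0.24, adjusted p 0.0221), and its other probe set fell by 1.11 (0.0366).

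Among 13 tested receptors of the ligands only Flt1, a VEGF receptor, rose, at least 2.63-fold (limma's adjusted p 0.0280). Its other probe set differed by 0.19 ± 0.24 (0.807), so the probe sets disagree. The shared chain Il6st differed by -0.32 ± 0.18, Egfr by -0.16 ± 0.21 and Lifr by -0.65 ± 0.19, none past the test. Of 19 genes for release, activation and binding none passed, with a median of 0.04. Closest was Adam19, a metalloprotease of the family that sheds membrane-anchored ligands, at 1.44 ± 0.29 (adjusted p 0.0729).

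Of 18 textbook targets of STAT3 or Smad signalling 3 rose, none fell and 16 were above 0, with a median of 0.31. Timp1, an inhibitor of matrix metalloproteases, rose by 1.53 ± 0.22 (0.0192). Tgfbi, an extracellular matrix protein named for its induction by TGF-beta, rose by 1.47 ± 0.18 (0.0122), and Cebpb, a transcription factor of inflammation, by 1.38 ± 0.23 (0.0303). These adjusted p-values are limma's. Of 21 intracellular signalling genes and inhibitors none passed by its brightest probe set (median 0.11). Socs3, a feedback inhibitor of STAT3 signalling, differed by 0.91 ± 0.22 (0.131) on that probe set, and rose by 1.13 ± 0.20 (0.0366) on its other, dimmer one. None of 7 proteins that bind AU-rich elements, sequences that mark many cytokine mRNAs for decay, passed (median -0.10). Zfp36, the best known of them, differed by 0.37 ± 0.28.

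**Figure D3:**
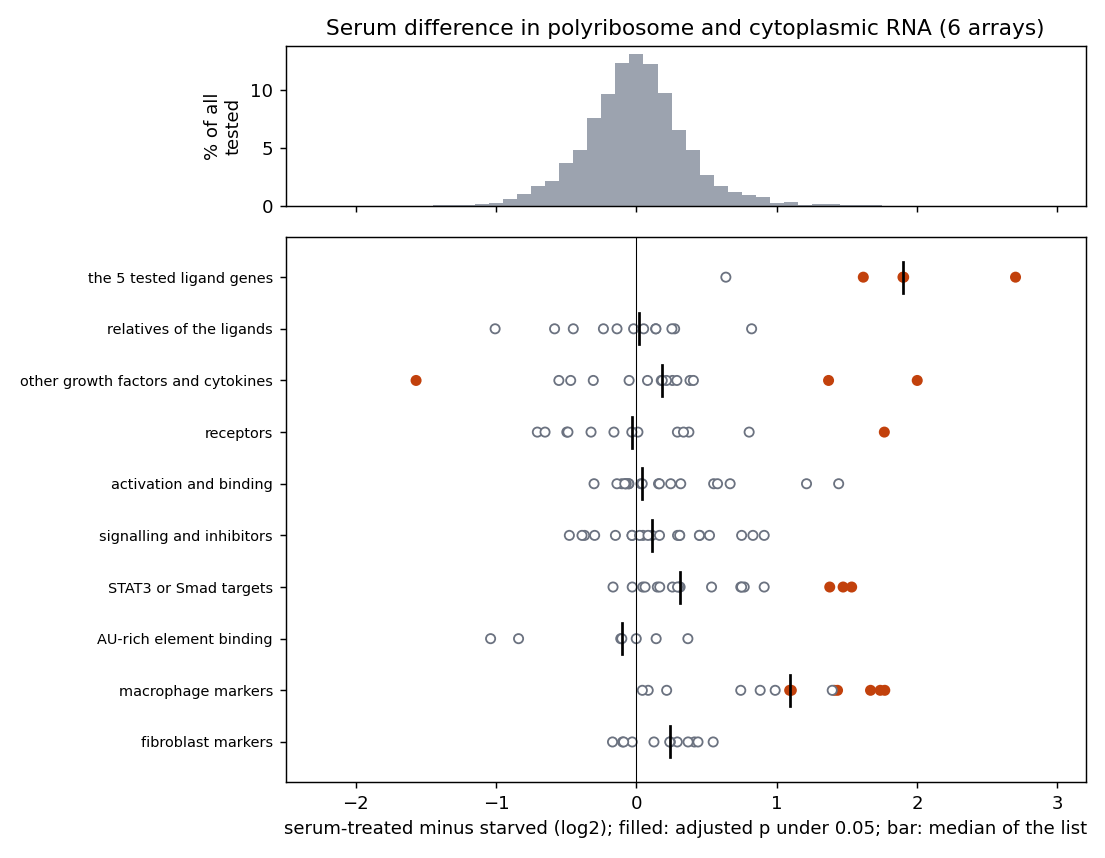
Difference between serum-treated and starved cells in polyribosome and cytoplasmic RNA (log2), with the distribution over all tested probe sets in the upper panel. In the lower panel each circle is 1 gene of a list, filled circles have an adjusted p under 0.05, and black bars are medians. The 5 tested ligand genes have a median of 1.90, against 0.02 for their relatives. The 5 were listed with earlier results of these data known. Vegfa and Il11 passed the filter only through the serum-treated arrays, so the contrast is a description and supports nothing.

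In undertranslated RNA, from the fractions with at most a single ribosome, Hbegf passed the test, with a higher level after serum. The other 4 tested genes did not. Hbegf stood at 8.11 and 8.24 log2 units after serum, against 6.80 and 6.44 in starved cells, with no overlap. The difference was 1.56 ± 0.27 (SE), 2.94-fold, with limma's adjusted p at 0.0428. Across all probe sets 27 rose (0.29%) and 73 fell (0.784%). With the replicate number as a block 53 probe sets passed, and Hbegf missed the threshold (0.0577). The pooled spread includes the quieter polyribosome arrays, and from the 4 undertranslated arrays alone, a fit added after the data were seen, no probe set passed and Hbegf had an adjusted p of 0.478. On simulated data with the spreads of these arrays, false calls outnumbered true ones in the 8-array fit of this comparison, so its calls are weakly supported. It was also lost on the deposited scale, where the intensities were 33.4 and 64.8 after serum, against 29.5 and 28.5 in starved cells, and the difference was 0.66 (adjusted p 0.441).

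Inhba in undertranslated RNA stood at 8.04 and 8.07 log2 units after serum, against 6.87 and 7.20 in starved cells. The arrays did not overlap, but the difference of 1.02 ± 0.29 (SE) had an adjusted p of 0.119 in limma. Its deposited intensities, 31.7 and 58.0 after serum, against 30.8 and 45.6 in starved cells, did overlap. Il6 read 5.5 and 10.5 after serum, against 5.7 and 15.4 in starved cells, a difference of -0.02 ± 0.56. Vegfa, Il11 and Tgfb1 were below background on all 4 undertranslated arrays, so no fold is given for them.

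Of the signalling lists, 3 genes passed in undertranslated RNA, with the same reserve. Flt1 was at least 5.77-fold higher (limma's adjusted p 0.0332). Il1b was at least 1.61-fold higher (0.0468), and was above background on 1 of the 2 serum-treated arrays. Bmp4 differed by -1.47 (0.0468). No macrophage marker of 14 passed there, with a median of 0.80, and their summed level was 849 to 1083 after serum, against 440 to 507 in starved cells. Epithelial sums (291 to 317, against 120 to 127) and endothelial sums (230 to 274, against 109 to 128) were higher after serum as well. So were lymphocyte sums (180 to 227, against 104 to 152), while fibroblast sums overlapped (4525 to 6854, against 5257 to 5383).

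**Figure D4:**
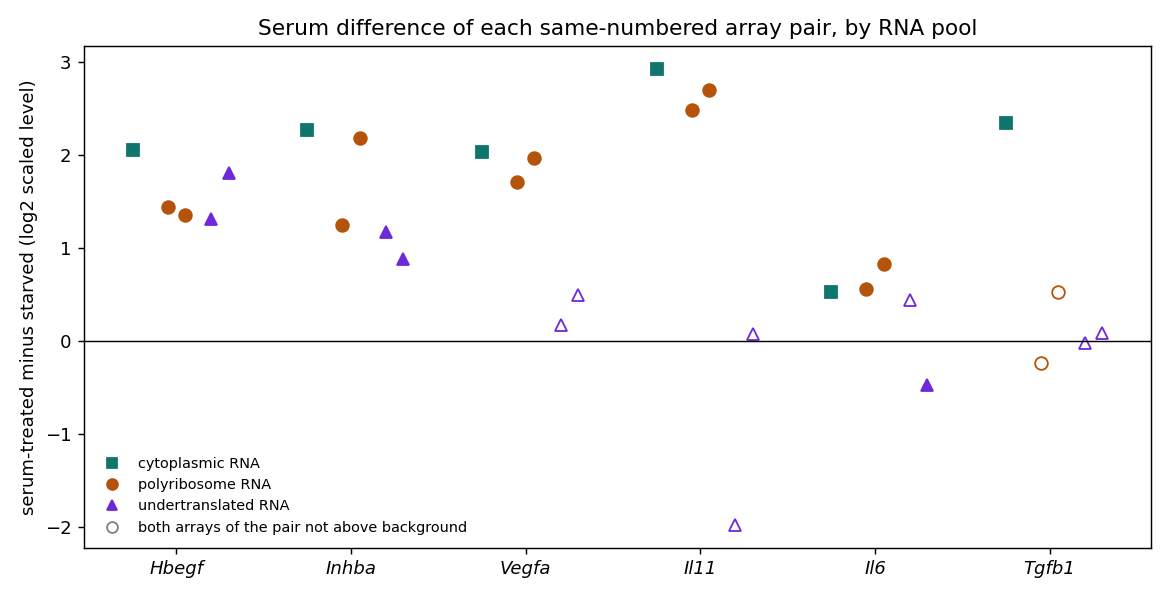
Difference in log2 level between the serum-treated and the starved array of the same replicate number, for each gene and RNA pool. Open symbols are pairs in which both arrays were not above background. Hbegf and Inhba lie above 0 in all 5 pairs, and Vegfa, Il11 and Il6 in all 3 of their cytoplasmic and polyribosome pairs.

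How the mRNAs divided between ribosome-loaded and undertranslated RNA was tested for each gene on its own. No test compared the genes with each other. Inhba was higher in polyribosome than in undertranslated RNA, relative to all other mRNAs. Il11 and Vegfa also passed the test, but with undertranslated levels known only as upper limits. Hbegf and Il6 did not pass in the main fit. Over all probe sets 2685 were higher in polyribosome RNA (28.8%) and 2359 in undertranslated RNA (25.3%), so a call here is common. Inhba differed by 1.16 ± 0.20 (SE, adjusted p 0.0018), Il11 by 1.83 ± 0.60 (0.0311) and Vegfa by 1.51 ± 0.55 (0.0463), in limma's fit of the 8 gradient arrays. Inhba passed under all 18 alternatives tried. The fitted values of Vegfa and Il11 are no measured differences, since both were below background on all 4 undertranslated arrays. Of the 8 gradient arrays they were above background on the 2 serum-treated polyribosome arrays alone, where Il11 was at least 1.51-fold higher than in serum-treated undertranslated RNA. For Vegfa no fold can be given, because its serum-treated polyribosome level of 4.42 ± 0.59 (SD, n = 2) was under the background of the serum-treated undertranslated arrays, 4.71 and 4.80. Vegfa passed under 9 and Il11 under 10 of 17 alternatives. Under median centring neither passed, at 0.48 (0.354) and 1.05 (0.0734).

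Hbegf differed between the gradient pools by less than its standard error. It stood at 8.01 and 8.01 in serum-treated polyribosome RNA, against 8.11 and 8.24 in serum-treated undertranslated RNA, and at 6.57 and 6.65, against 6.80 and 6.44, in starved cells. The difference was -0.09 ± 0.19 (SE, adjusted p 0.724). Its direction depended on scaling: on the deposited values it was 3.95 and under median centring 1.49, with the median of all probe sets at 3.02 and 0.56. Relative to that median Hbegf was 0.93 higher and Il6 0.14 lower, values that both scalings share by construction. Il6 differed by 0.23 ± 0.40 in the quantile-normalized data (adjusted p 0.653). Of 18 alternatives tried, Hbegf passed under 3 and Il6 under 2, so their missing calls also depended on the processing.

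Genes of the same signalling systems divided both ways, as did all probe sets, of which 28.8% were higher and 25.3% lower in polyribosome RNA. List counts near these shares, below, show nothing particular to a list. Of 13 receptors tested 4 were higher in polyribosome RNA, led by Il6st at 2.37 ± 0.29 (SE, limma's adjusted p 0.000284) and the TGF-beta co-receptor Eng at 1.81, and 2 were lower, led by Il6ra at -1.49. Of 19 release, activation and binding genes 8 were higher, among them Adam19 (2.58) and the convertase Pcsk7 (at least 1.72-fold), and 3 lower, led by another convertase, Pcsk5 (-2.44). The median of that list was 0.80, against 0.05 over all probe sets. Of 12 close relatives 3 were higher, among them Vegfc (1.57) and the activin B subunit Inhbb, which was not above background in undertranslated RNA, and 3 lower, led by Inhbc (-1.81).

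Of 15 other growth factors and cytokines 4 were higher in polyribosome RNA, led by Mdk (midkine, at least 3.17-fold) and Csf1 (1.62), and 3 lower, led by Csf3 (-1.55). Of 21 intracellular signalling genes 6 were higher, led by Jak1 (1.97) and Smad4 (1.94), and 7 lower. Of 18 targets of STAT3 or Smad signalling 7 were higher and 3 lower, led by the matrix genes Col1a1 (-3.63) and Fn1 (-1.90). Col1a1 has a second probe set, nearly as bright, whose difference between these pools is not reported here. Matrix genes did not share a direction: of the 12 fibroblast markers 7 were higher, among them Col1a2 (2.58) and Col3a1 (1.56), and 3 lower. Of 7 proteins that bind AU-rich elements 4 were higher and none lower, led by Elavl1 (2.58) and Hnrnpd (2.34).

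Whether serum changed this division was tested as an interaction, and no probe set passed (0%), although 722 had an unadjusted p under 0.05. The lowest of limma's adjusted p-values was 0.439. Il11 had an interaction of 3.54 ± 1.20 log2 units (SE, adjusted p 0.576) and Vegfa of 1.51 ± 1.11 (0.747), both resting on undertranslated arrays below background. Inhba had 0.69 ± 0.41 (0.715), Il6 0.71 ± 0.79 (0.814) and Hbegf -0.16 ± 0.38 (0.916). A p that misses the threshold does not show that the serum difference was the same in both pools.

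Across the 10 arrays the genes did not share a single pattern. Vegfa and Inhba were most alike (Pearson r 0.893), and Il6 and Tgfb1 least (-0.187), over arrays that share serum state and pool. Vegfa was above background on 4 of the 10 arrays and Il11 on 3, so their correlations rest largely on values below it. The genes most like each member, among 8274 others with 1 symbol that passed the filter, were the following. Inhba was nearest to Gadd45b (0.958), a stress-induced gene, Arntl (0.944), a clock gene, and Rgs16 (0.939), a regulator of G protein signalling. Vegfa was nearest to Actg2 (0.926), a smooth muscle actin, Tpbg (0.918) and Map3k4 (0.915), a stress kinase. Il11 was nearest to Cd68 (0.976), Slc2a1 (0.888), a glucose transporter, and Mmp13 (0.885), a collagenase. Hbegf was nearest to Clec4d (0.938), Spsb1 (0.932) and Plet1 (0.931). Il6 was nearest to C1qa (0.870), Glul (0.824), which encodes glutamine synthetase, and Bclaf1 (0.822). Cd68, Clec4d and C1qa are on the macrophage marker list above. Tgfb1 was nearest to Tpm1 (0.944), Txnrd1 (0.927) and Agap3 (0.914), but it was above background on 1 array alone.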

How the data were processed

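RNA of 10 samples was amplified, labelled with biotin and measured on 1 Affymetrix array each, following the labels' protocols. The deposited table holds 1 linear intensity per probe set and array. How the authors summarised and scaled them is not given in the sources used here. The members, gene lists and tests were chosen with earlier results of these data known.

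Values were taken as log2(intensity + 1.5), a pseudocount at the table's 10th percentile that understates fold changes of dim genes. They were quantile normalized over the 10 arrays, because their medians lay as much as 2.95 log2 units apart. Probe sets were kept if their mean level exceeded the 25th percentile. limma 3.58.1 (R 4.3.3) was fitted with lmFit and eBayes with a trend, two-sided, with Benjamini-Hochberg adjustment over 9316 probe sets and a threshold of 0.05. The serum response was fitted over the 6 polyribosome and cytoplasmic arrays with pool as a covariate, and the other comparisons over the 8 gradient arrays. The scripts were checked on simulated data: the serum response in polyribosome and cytoplasmic RNA gave few false calls, while in undertranslated RNA false calls outnumbered true ones.

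All probe sets of the listed genes are named. Of each gene list, called genes are named up to 6 in the first comparison and 3 in each other one, and genes printed that did not pass were chosen as best known after their values were seen. The 3 genes most like each member by Pearson correlation are given. A gene with more than 1 probe set is represented by its brightest on average. Atf1 has no probe set of 1 symbol in the tables used here, so its level is not reported. The replicate numbers of the labels pair gradient arrays by treatment, since all arrays numbered 2 had 4-thiouridine. When group means were removed, arrays with the same number correlated at 0.275 for the 2 polyribosome groups and at 0.0167 to 0.0534 for other pairs of groups. The number of arrays limits the precision.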

Additional observations from a re-analysis of the deposited data

How the results depend on the processing

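In polyribosome and cytoplasmic RNA, 83 probe sets passed. The count was 24 with no filter, 17 with no variance trend, 0 with all 10 arrays and 1 mean per group, and 5 to 115 when each array was left out in turn. With the replicate number as a block, which pairs arrays by 4-thiouridine labelling, 152 passed, and Il11, Inhba, Hbegf and Vegfa kept their calls. Vegfa also lost its call with no filter (adjusted p 0.0751) and no trend (0.0644), and all 4 lost it with all 10 arrays. In undertranslated RNA, 100 passed, against 22 on the deposited values, 12 with hybridization control scaling, 53 with the replicate block, 0 from the undertranslated arrays alone and 0 to 2300 with an array left out (2300 without serum-treated undertranslated replicate 2). Hbegf kept its call there in 7 of 19 alternatives and lost it with the block (0.0577). Between the gradient pools 5044 passed, against 8595 on the deposited values and 8886 with hybridization control scaling. The share higher in polyribosome RNA was 53.2%, against 99.6% on the deposited values, 67.0% once medians were centred and 99.7% when hybridization controls set the scale. In the serum response the share higher was 74.7%, against 62.7% on the deposited values and 29.7% when hybridization controls set the scale, where the median difference over all probe sets became -0.39. In undertranslated RNA it was 27%, against 0% on the deposited values and by hybridization controls and 10.3% with centred medians. The interaction passed for 0 to 903 probe sets when an array was left out, 903 again without that array.

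Hbegf between the gradient pools turned to 3.95 on the deposited values, 1.49 with centred medians and 4.26 by hybridization controls, and its interaction to 0.79, 0.67 and 0.41. With an array left out, these ranged from -0.18 to 0.0049 and from -0.34 to 0.026, and for Il6 from -0.14 to 0.59 and from -0.0247 to 1.45. In undertranslated RNA the serum difference ranged from -0.75 to 0.72 for Il6, from -0.56 to 1.22 for Vegfa and from -2.29 to 0.39 for Il11. At a filter on the 50th percentile Vegfa and Il11 were not tested. The causes were not tested. Signal near background limits Vegfa, Il11 and Tgfb1, and a single array per state limits cytoplasmic RNA.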
